A study of Mus musculus with 12 samples.

Results

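Interferon-stimulated genes were followed here in mouse Th9 cells, the IL-9-producing helper T cells, as 48 gene names that cover the IFITM membrane proteins and the main antiviral families. The members were picked by symbol, and *Ifitm1* was singled out because its level falls when fatostatin is added to EpA, so the libraries of these 2 groups were used in the choice. *Ddx58* is the older name of *Rigi*, which leaves 47 genes of the 32051 in the table, all of them found. Naive CD4+ T cells from the spleens of C57BL/6J mice were stimulated through CD3 and CD28 for 4 days in IL-4 (10 ng/mL) with TGF-β (1 ng/mL), and RNA was sequenced from 4 groups of 3 libraries. All 4 groups shared this Th9 mixture and antibodies against IL-12 and IFN-γ, which neutralize those cytokines in the controls as well. The DMSO group received the vehicle, the EpA group received 10 μM endomelipeptide A, a cyclic lipopeptide of endophytic fungi, the fatostatin group received 5 μM fatostatin, an inhibitor of the lipid-synthesis regulators SREBP, with DMSO, and the EpA+fatostatin group received both compounds. The study calls the samples independent, but neither it nor the labels was found to say whether the 3 libraries of a group came from separate animals or cultures, so the p-values measure only the spread between these libraries, which may be technical.

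Interferons signal through paired receptors and Janus kinases. Type I and type III interferons assemble a complex with IRF9 that binds the interferon-stimulated response element (ISRE), whereas interferon-γ acts through the gamma-activated site (GAS) and induces IRF1, itself a factor for ISRE-like sites. The genes switched on include GTPases that attack pathogen compartments, sensors of foreign nucleic acid, enzymes that degrade RNA or deplete nucleotides, the ubiquitin-like ISG15 system and the IFITM proteins, which hinder the entry of viruses. Many of them are kept at a low tonic level in resting T cells.

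The libraries held 36607306 to 44375773 reads on genes, and all 7 T cell markers in the table (such as *Cd3e* and *Cd4*) were above 1 FPKM (fragments per kilobase of exon, scaled to library size) in every group. *Il9* averaged 54.6 FPKM with DMSO, 640 with EpA, 66.5 with fatostatin and 821 with both. The summed T cell markers were 628 to 638 FPKM with DMSO and 553 to 557 with EpA. They were 609 to 627 with fatostatin and 532 to 537 with both. *Cd4* went the other way, averaging 78.2, 86.8, 84.3 and 90.5 FPKM with DMSO, EpA, fatostatin and both. Of the markers of other cells, both CD8 genes together gave 8.71 to 9.79 FPKM with DMSO, 7.85 to 8.57 with EpA, 8.55 to 10.2 with fatostatin and 6.98 to 8.60 with both. Of these *Cd8a* averaged 1.81, 0.802, 1.52 and 0.491 FPKM in that order, lower with EpA in every library. The 3 natural killer markers summed to 4.69 to 5.05 FPKM with DMSO and 2.52 to 3.12 with EpA. Their sum was 3.37 to 3.86 with fatostatin and 1.75 to 2.30 with both, nearly all from *Klrd1*. *Ncr1* averaged 0.0106, 0.0422, 0.0107 and 0.0412 FPKM in that order and *Klrb1c* 0.0142, 0.0221, 0.0211 and 0.0220, both too low to test. The 4 B cell markers summed to 5.97 to 7.88 FPKM with DMSO, 5.19 to 6.21 with EpA, 7.51 to 8.62 with fatostatin and 6.23 to 6.86 with both. The 6 macrophage and monocyte markers summed to 1.28 to 1.40 FPKM with DMSO, 1.27 to 1.79 with EpA, 1.57 to 2.39 with fatostatin and 1.87 to 2.90 with both. The 5 dendritic cell markers summed to 0.452 to 0.656 FPKM over all libraries, with *Siglech* and *Clec9a* at 0 throughout. The 4 erythroid and platelet markers summed to 1.01 to 2.05 FPKM with DMSO, 2.89 to 3.38 with EpA, 1.65 to 2.47 with fatostatin and 2.98 to 4.23 with both. With EpA the T cell sum, *Klrd1* and *Cd8a* were lower, while *Cd4* and the platelet genes *Pf4* and *Ppbp* were higher. The macrophage and monocyte sum was higher with fatostatin, and the B cell sum was lower with both compounds than with fatostatin. These shifts were in the same libraries as the members described next, and their part in those results was not tested. In bulk RNA, fewer cells of a type and less RNA per cell cannot be told apart.

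The members covered a wide range of levels. With DMSO, 12 members averaged at least 10 FPKM, 15 averaged 1 to 10 FPKM, 11 averaged 0.1 to 1 FPKM and 9 were below 0.1 FPKM. The immunity-related GTPases *Igtp* (mean 95.7 ± 1.27 FPKM, SD, n = 3) and *Ifi47* (54.9 ± 1.55) led the order, followed by *Bst2* (46.0 ± 2.91), the tetherin that holds budding virions on the cell surface, and *Samhd1* (34.8 ± 0.0805), which depletes the nucleotides needed for reverse transcription. Among genes well known as type I interferon responders, *Ifi35* was at 14.7 ± 0.797 FPKM and *Usp18* at 6.85 ± 0.371, while *Isg15* was at 1.39 ± 0.197, *Mx1* at 0.294 ± 0.0451 and *Ifit1* at 0.199 ± 0.0747. The 9 members not tested for a low mean were *Rsad2*, *Mx2*, *Ifi44*, *Oasl2*, *Oas2*, *Rtp4*, *Ifit3b*, *Oas1g* and *Ifit1bl1*, and *Oas1g* was at 0 in 11 libraries. The remaining 38 averaged at least 0.1 FPKM over the 12 libraries, and 0 of them reached that minimum through 1 group only. Some neighbors low in this order, such as *Mx1* and *Isg20* (0.305 ± 0.0499 FPKM), did not differ beyond their spread.

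**Figure D1:**
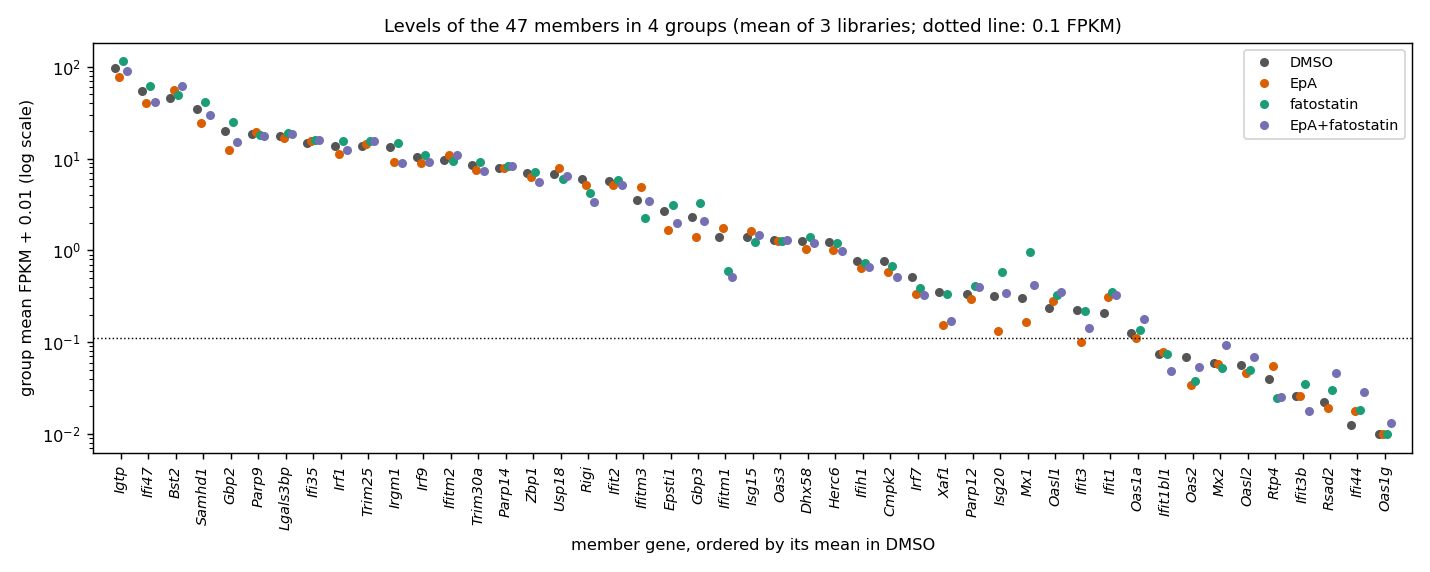
Group means in FPKM + 0.01 (log axis) of the 47 members, ordered by their mean with DMSO, with 1 colored point for each of the 4 groups (mean of 3 libraries) and a dotted line at 0.1 FPKM. The levels run from 95.7 FPKM for *Igtp* to 0 for *Oas1g* with DMSO, and the order is led by GTPases, *Bst2* and *Samhd1*.

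EpA lowered a large share of these genes and raised few. Against DMSO, 14 of the 38 tested members fell (36.8%, where 13.1% of all 13733 tested genes fell) and 1 rose, *Bst2* (14.3% of all tested genes rose). With a change of at least 1.5-fold also required, on the log2(FPKM + 0.1) scale, which understates the change of low genes, 6 members fell (*Isg20*, *Xaf1*, *Gbp3*, *Gbp2*, *Epsti1* and *Mx1*), against 1.94% of all tested genes, and 0 rose, against 1.44%. The same question in the presence of fatostatin, both compounds against fatostatin alone, uses 6 other libraries. There 15 of 38 members fell (39.5%, background 13.3%) and 2 rose, *Bst2* and *Ifitm3* (5.26%, background 16.2%), while 7 fell (background 1.86%) and 1 rose (background 1.89%) by at least 1.5-fold, the 7 being the same 6 genes and *Irgm1*. With a pseudocount of 1 the counts past 1.5-fold were 1 in place of 6 and 2 in place of 7. The 1 that rose was *Ifitm3*, and none did without any 1 of 4 libraries (fatostatin 2 or any library with both compounds). The median log2 difference of the members was -0.20 without fatostatin and -0.21 with it, compared with 0.0023 and 0.012 over all tested genes. The first was -0.13 with all genes above 0 tested and the second -0.11 with a pseudocount of 1.

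All 6 tested GTPases fell with EpA in both settings. The guanylate-binding proteins *Gbp2* and *Gbp3* coat and break open the compartments of intracellular pathogens, and the immunity-related GTPases *Irgm1*, *Igtp* and *Ifi47* regulate or join the same attack. *Gbp2* (chr3:142620602-142638008, plus strand, GRCm38) read 20.9, 20.3 and 18.9 FPKM with DMSO and 12.1, 12.6 and 12.8 with EpA, then 24.3, 25.1 and 24.8 with fatostatin and 15.3, 15.3 and 14.5 with both. Every library with EpA lay below every library without it. The log2 difference was -0.67 (SE 0.0382, adjusted p = 3.99e-07) without fatostatin and -0.71 (SE 0.0382, adjusted p = 1.96e-07) with it.

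Its neighbor *Gbp3* (chr3:142560026-142573209, plus strand) read 2.33, 2.49 and 2.12 FPKM with DMSO, 1.38, 1.41 and 1.42 with EpA, 3.51, 3.22 and 2.96 with fatostatin and 2.08, 2.03 and 2.06 with both. The libraries with both compounds lay only narrowly below those with DMSO, and the EpA libraries were the lowest of the 12. The log2 differences for EpA were -0.68 (SE 0.0742, adjusted p = 4.86e-05) and, with fatostatin, -0.62 (adjusted p = 8.43e-05).

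*Irgm1* (chr11:48861968-48871683, minus strand) read 13.4, 13.4 and 13.7 FPKM with DMSO, 9.24, 8.99 and 9.17 with EpA, 14.8, 14.97 and 14.6 with fatostatin and 8.95, 8.65 and 8.91 with both. The 2 groups with EpA were clearly apart from the 2 without, and the log2 difference was -0.55 (SE 0.0252, adjusted p = 7.05e-08) without fatostatin and -0.74 (adjusted p = 6.56e-09) with it. *Igtp* fell from 95.7 ± 1.27 to 76.8 ± 1.36 FPKM (SD, n = 3, log2 difference -0.32, adjusted p = 2.66e-06), and *Ifi47* fell from 54.9 ± 1.55 to 40.04 ± 0.658 FPKM (-0.45, adjusted p = 6.95e-07). Exons of *Igtp* overlap those of *Irgm2* on the same strand over 8.01% of their length, and exons of *Ifi47* overlap those of *Olfr56* over 4.49%, so a small part of their reads cannot be assigned with certainty.

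*Mx1* (chr16:97447035-97462907, minus strand) encodes a dynamin-like GTPase against influenza viruses, and the allele of most laboratory strains is known to be defective, so only its transcript is described. It read 0.245, 0.304 and 0.334 FPKM with DMSO and 0.120, 0.199 and 0.144 with EpA, on 18 to 55 reads per library. Fatostatin brought it to 0.828, 0.948 and 1.102 FPKM, and both compounds to 0.317, 0.515 and 0.413, on 51 to 169 reads. The 3 fatostatin libraries were the highest of the 12, and the EpA libraries the lowest. The log2 difference of EpA from DMSO was -0.64 (SE 0.188, adjusted p = 0.0255), a call that ended when 1 of 4 libraries was left out (adjusted p 0.068 to 0.0891), and that of both compounds from fatostatin was -1.05 (SE 0.188, adjusted p = 0.00147).

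**Figure D2:**
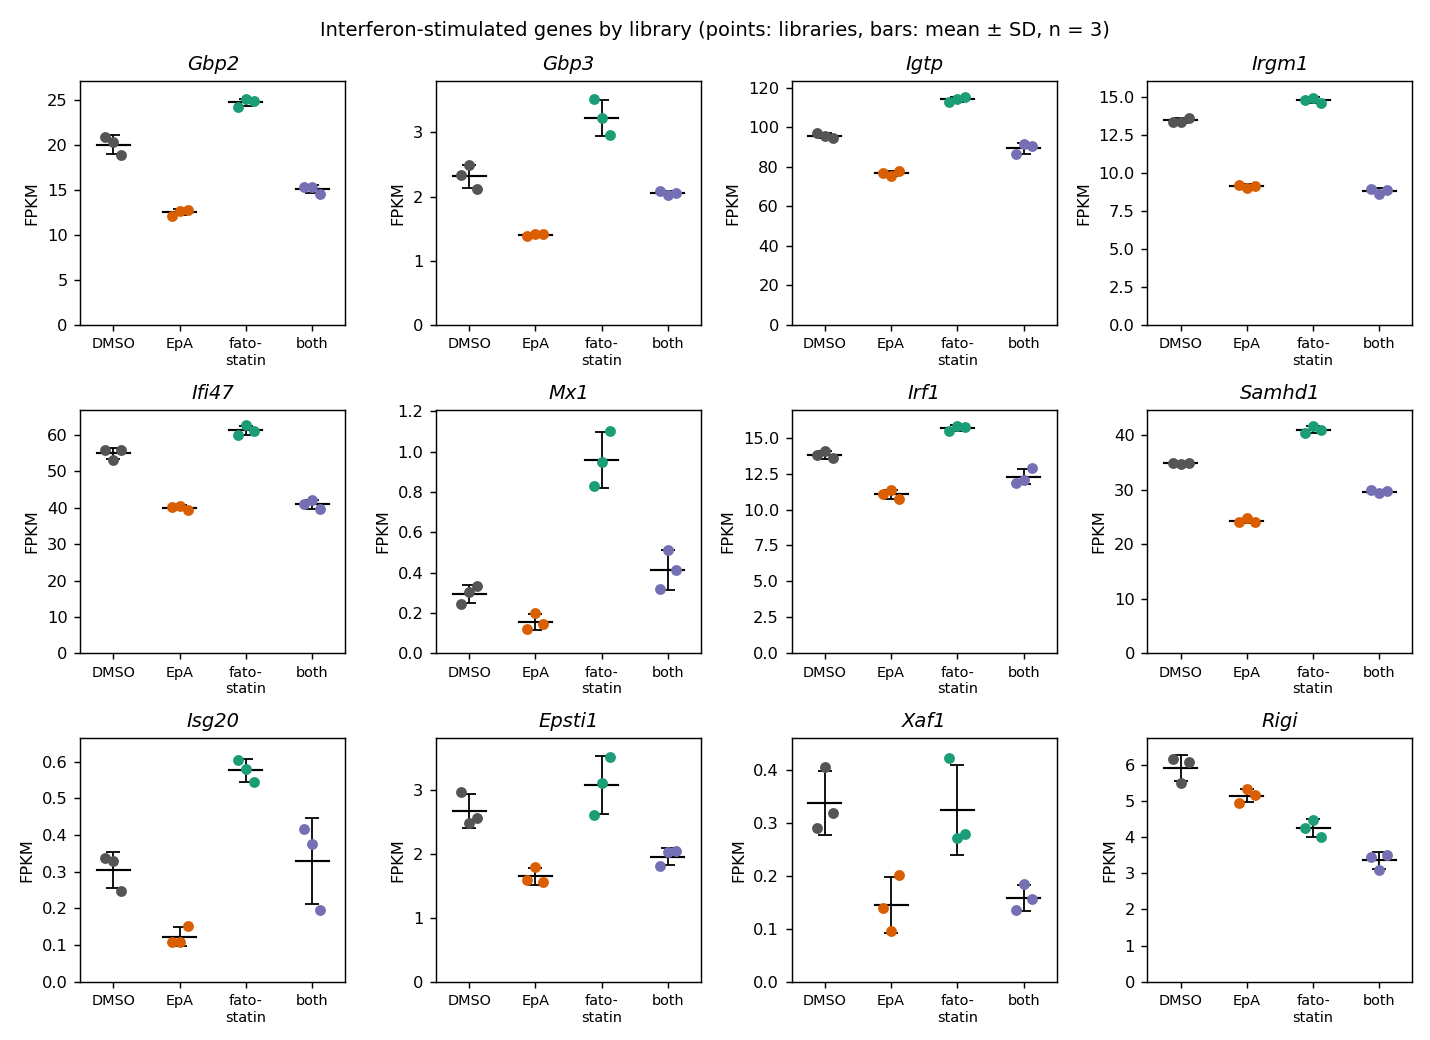
FPKM of 12 members in each of the 12 libraries (points), with the mean and SD of the 3 libraries of each group (black bars) and an axis from 0 in each panel. The 6 GTPases, *Irf1* and *Samhd1* are lower in the EpA libraries than in the DMSO libraries and lower with both compounds than with fatostatin, while *Rigi* is lower in both groups with fatostatin.

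The transcripts that fell together carry interferon elements near their starts in part. Promoter stretches from RefSeq (GRCm38.p6) are shown for the GTPases in which the last 250 bases before the start hold an ISRE, searched as GAAANNGAAA on both strands (TTTCNNTTTC on the other), or a GAS, searched as TTCNNNGAA, which reads the same on both strands; the capitals mark the matches, which may overlap one another, and distances count from the first base of a match to the RefSeq transcript start, which can lie inside the gene span given above. *Gbp3* has overlapping ISRE matches at 45 and 39 bases before its start (chr3:142559924-142560043, plus strand), *Igtp* a GAS at 45 bases and an ISRE at 34 (chr11:58199436-58199555, plus strand), *Gbp2* an ISRE at 59 (30 bases shown, chr3:142620594-142620623, plus strand) and *Irgm1* overlapping ISRE matches at 30 and 24 (30 bases shown, chr11:48871428-48871457, minus strand). The stretch of *Irgm1* and most of that of *Gbp2* lie within the GENCODE spans of these genes, so they are not upstream of every annotated transcript. *Ifi47* has no match of either kind, and *Mx1* was not searched.
Gbp3: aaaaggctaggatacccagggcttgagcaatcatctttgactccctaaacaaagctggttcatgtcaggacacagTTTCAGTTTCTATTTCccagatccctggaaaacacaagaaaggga
Igtp: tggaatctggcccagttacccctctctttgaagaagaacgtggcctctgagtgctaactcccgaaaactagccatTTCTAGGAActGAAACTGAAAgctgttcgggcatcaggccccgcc
Gbp2: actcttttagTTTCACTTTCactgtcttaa
Irgm1: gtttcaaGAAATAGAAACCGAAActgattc

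Of the 3 interferon regulatory factors, 2 fell with EpA. *Irf1* (chr11:53770014-53778374, plus strand), the transcription factor induced through GAS sites, averaged 13.8 ± 0.275 FPKM with DMSO, 11.1 ± 0.327 with EpA, 15.7 ± 0.202 with fatostatin and 12.3 ± 0.525 with both (SD, n = 3). It fell with EpA by 0.32 on the log2 scale without fatostatin (adjusted p = 4.47e-05) and by 0.35 with it (adjusted p = 1.8e-05). *Irf9*, the DNA-binding subunit of the ISRE complex, fell by 0.21 (adjusted p = 0.00578) and 0.23 (adjusted p = 0.00341). *Irf7*, the amplifier of type I interferon production, was at 0.497 ± 0.0804 FPKM with DMSO and 0.321 ± 0.0315 with EpA, a difference that did not pass the test (adjusted p = 0.0657).

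Among enzymes that act on RNA and nucleotides, *Isg20* (chr7:78913424-78920396, plus strand), an exonuclease that degrades viral RNA, had the lowest ratio of EpA to DMSO of all tested members. It read 0.338, 0.329 and 0.247 FPKM with DMSO, 0.108, 0.108 and 0.152 with EpA, 0.606, 0.580 and 0.544 with fatostatin and 0.417, 0.375 and 0.197 with both. These values rest on 8 to 50 reads per library, the fewest among the called members. The EpA libraries were below and the fatostatin libraries above all others, with a log2 difference for EpA of -0.86 (SE 0.212, adjusted p = 0.0108) without fatostatin and -0.69 (adjusted p = 0.0288) with it, the second of which was lost without any 1 of 4 libraries (adjusted p 0.0565 to 0.0932) and was -0.45 without the third library with both compounds, the lowest of that group. *Samhd1* fell from 34.8 ± 0.0805 to 24.3 ± 0.423 FPKM (log2 difference -0.52, SE 0.0196, adjusted p = 1.46e-08), and from 41.0 ± 0.666 to 29.6 ± 0.275 in the presence of fatostatin (-0.47, adjusted p = 3.1e-08). *Cmpk2*, a mitochondrial nucleotide kinase next to *Rsad2*, was at 0.749 ± 0.0326 FPKM with DMSO and 0.569 ± 0.0542 with EpA (adjusted p = 0.0657).

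Of the other members that fell with EpA, *Trim30a* has an ISRE match at 36 bases and *Samhd1* a GAS match at 235 bases before the start, which are not shown. *Irf1* and *Isg20* are shown for their GAS matches, at 90 bases (chr11:53769894-53770013, plus strand) and 73 bases (chr7:78913304-78913423, plus strand) before the start. *Isg15*, which was not called in any comparison, is shown beside them because it holds 3 overlapping ISRE matches, at 78, 72 and 66 bases (chr4:156200819-156200938, minus strand).
Irf1: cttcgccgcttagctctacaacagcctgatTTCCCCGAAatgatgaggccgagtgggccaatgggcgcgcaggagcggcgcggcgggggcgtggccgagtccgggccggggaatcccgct
Isg20: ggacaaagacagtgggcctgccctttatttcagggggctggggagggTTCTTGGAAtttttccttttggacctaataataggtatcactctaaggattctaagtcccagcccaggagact
Isg15: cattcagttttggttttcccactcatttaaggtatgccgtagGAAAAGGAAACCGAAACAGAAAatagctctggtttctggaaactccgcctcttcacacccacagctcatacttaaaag

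Of the 38 members with a RefSeq promoter in the table, 16 (42.1%) had an ISRE match and 7 (18.4%) a GAS match in those 250 bases, compared with 3.46% and 8.13% of 27025 genes with promoters of the same length, a gene counting once if any of its promoters had a match. Presence of a match did not separate the members that fell: an ISRE match was found in 5 of 13 members that fell with EpA and in 7 of 19 other tested members, and a GAS match in 4 of 13 and 3 of 19. A match is a description of letters, and no use of the element was measured.

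Other members that fell with EpA have less settled roles. *Xaf1* (chr11:72301629-72313733, plus strand), which opposes an inhibitor of apoptosis, read 0.291, 0.407 and 0.319 FPKM with DMSO, 0.139, 0.0963 and 0.201 with EpA, 0.423, 0.273 and 0.279 with fatostatin and 0.135, 0.185 and 0.156 with both. The 6 libraries with EpA were below the 6 without it. Its log2 difference was -0.85 (SE 0.214, adjusted p = 0.0121) without fatostatin and -0.70 (adjusted p = 0.0287) with it, and the second was lost without any 1 of 3 libraries (adjusted p 0.068 to 0.11).

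*Epsti1* (chr14:77904239-78002657, plus strand) read 2.97, 2.48 and 2.57 FPKM with DMSO, 1.59, 1.79 and 1.56 with EpA, 2.61, 3.11 and 3.51 with fatostatin and 1.80, 2.02 and 2.04 with both. Again the 6 EpA libraries lay below the rest, with log2 differences of -0.66 (SE 0.108, adjusted p = 0.000888) and -0.62 (adjusted p = 0.00123). *Bst2* went the other way, from 46.0 ± 2.91 to 55.5 ± 2.39 FPKM with EpA (log2 difference 0.27, SE 0.0596, adjusted p = 0.00567) and from 49.2 ± 2.36 to 60.9 ± 4.36 on top of fatostatin (0.31, adjusted p = 0.00246). *Trim30a*, a TRIM family ubiquitin ligase that restrains inflammatory signaling, fell by 0.21 (adjusted p = 0.00296) and 0.31 (adjusted p = 0.000177).

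The IFIT, OAS and PARP genes did not pass the test in any comparison. These included the 3 tested IFIT genes, whose proteins bind foreign RNA (*Ifit1*, *Ifit2* and *Ifit3*). The others were the 3 tested genes of the OAS family and the 3 ADP-ribosyltransferases *Parp9*, *Parp12* and *Parp14*. Of the OAS family, *Oas1a* and *Oas3* encode sensors of double-stranded RNA that activate RNase L, while *Oasl1* is an OAS-like gene. *Ifit2* averaged 5.73 ± 0.169 FPKM with DMSO and 5.18 ± 0.391 with EpA (adjusted p = 0.129). *Isg15* averaged 1.39 ± 0.197 and 1.61 ± 0.532 (adjusted p = 0.681), and *Usp18*, the protease that removes ISG15 and dampens the type I receptor, 6.85 ± 0.371 and 7.91 ± 0.323 (adjusted p = 0.109). *Ifit3* and *Ifit3b*, *Ifit1* and *Ifit1bl1*, and *Oas1a* and *Oas1g* are close copies whose reads may be divided between them, which makes these low levels less certain.

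**Figure D3:**
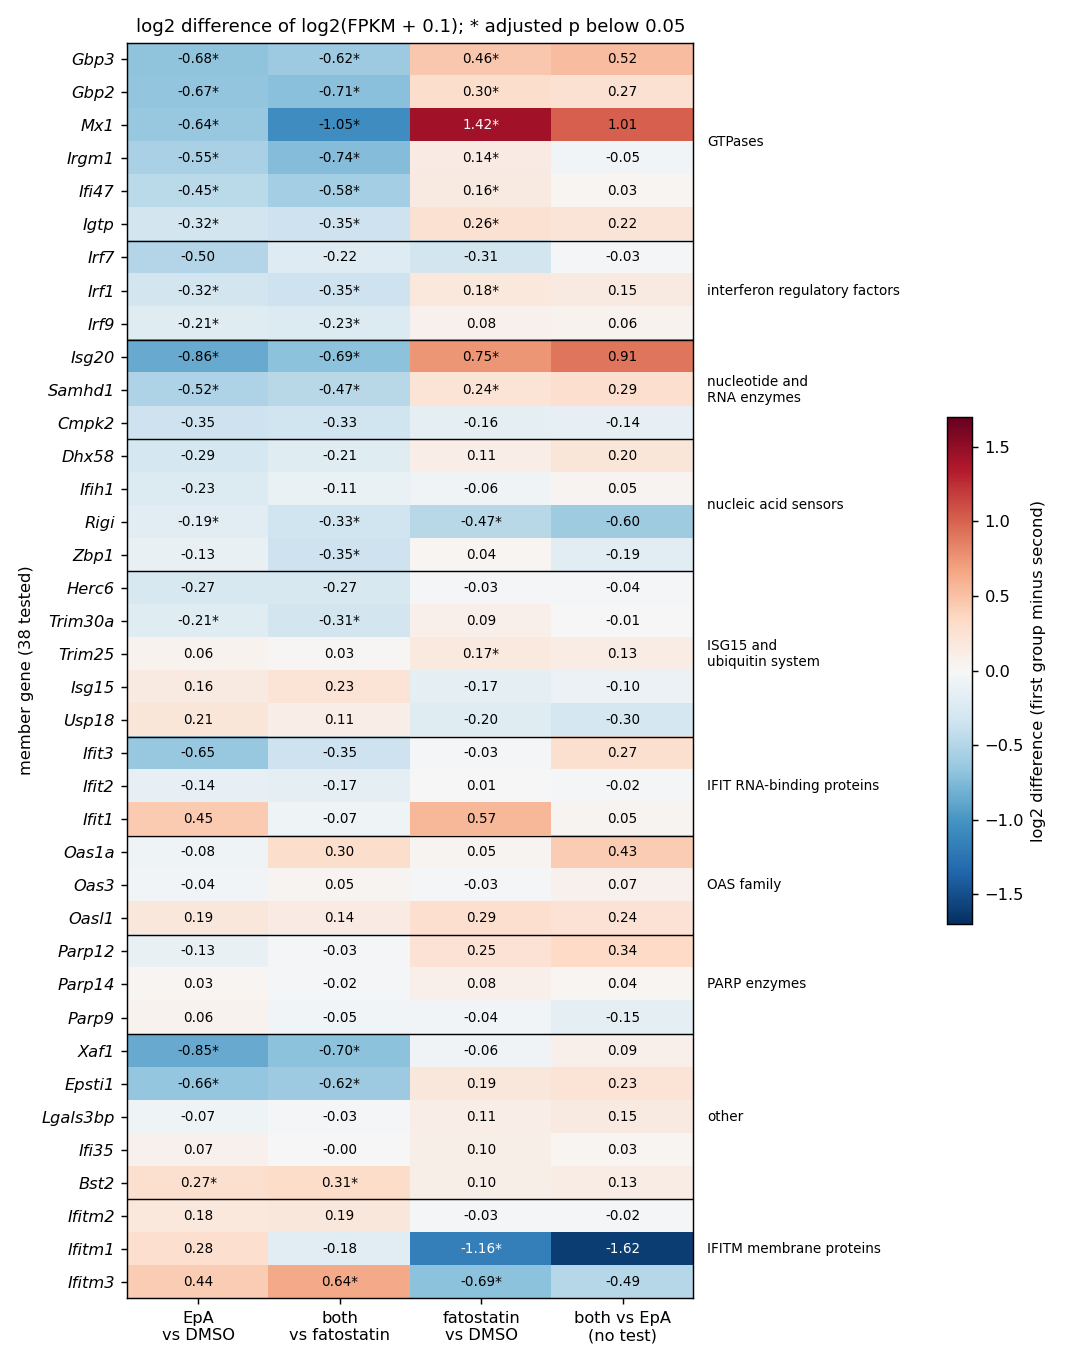
Differences of log2(FPKM + 0.1) for the 38 tested members (rows, grouped by role) in 4 comparisons (columns), colored from blue (lower in the first group) to red (higher), with an asterisk at an adjusted p below 0.05 in limma. The GTPase rows are negative in both EpA columns and positive in the fatostatin column (*Mx1* -0.64, -1.05 and 1.42), while *Ifitm1* is at -1.16 with fatostatin alone and -1.62 in the last column, which carries no test.

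Fatostatin alone shifted the members in the opposite sense for the GTPases. Against DMSO, 10 of 38 members rose (26.3%, background 7.69%) and 3 fell, *Ifitm1*, *Ifitm3* and *Rigi* (7.89%, background 6.31%), and at 1.5-fold or more 2 rose (*Mx1* and *Isg20*, background 1.35%) and 2 fell (*Ifitm1* and *Ifitm3*, background 0.502%). These small counts were not stable, with 1 to 2 in each direction when 1 library was left out. This comparison shares the DMSO libraries with that of EpA against DMSO, so a high or low DMSO library would move both in the same sense. The median log2 difference was 0.087 for the members and 0.0053 for all tested genes.

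The 6 tested GTPases rose with fatostatin, *Mx1* by 1.42 on the log2 scale (SE 0.188, adjusted p = 0.000386), *Gbp3* by 0.46 (adjusted p = 0.00149), *Gbp2* by 0.30 (adjusted p = 0.000264), *Igtp* by 0.26 (adjusted p = 2.36e-05), *Ifi47* by 0.16 (adjusted p = 0.00289) and *Irgm1* by 0.14 (adjusted p = 0.00385). In means, *Mx1* went from 0.294 to 0.959 FPKM, 3.26 times the DMSO level. *Isg20* rose by 0.75 (SE 0.212, adjusted p = 0.037), on 20 to 25 reads with DMSO and 41 to 50 with fatostatin, a call that ended without any 1 of the 6 libraries compared (adjusted p 0.066 to 0.126). *Samhd1* rose by 0.24 (adjusted p = 1.24e-05), *Irf1* by 0.18 (adjusted p = 0.00432) and *Trim25*, the ubiquitin ligase of the RIG-I pathway, by 0.17 (adjusted p = 0.00663).

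*Rigi* (chr4:40203773-40239828, minus strand), the sensor of uncapped viral RNA, was the exception among the cytosolic sensors. It read 6.14, 5.49 and 6.06 FPKM with DMSO, 4.95, 5.32 and 5.15 with EpA, 4.25, 4.48 and 4.00 with fatostatin and 3.46, 3.09 and 3.51 with both. The 4 groups did not overlap. It fell by 0.47 on the log2 scale with fatostatin (SE 0.0643, adjusted p = 0.000542), by 0.19 with EpA (adjusted p = 0.0437, lost without any 1 of 6 libraries, adjusted p 0.0561 to 0.138) and by 0.33 with EpA on top of fatostatin (adjusted p = 0.00243). *Ifih1* and *Dhx58*, the other RIG-I-like receptors, did not pass any test, and *Zbp1*, which senses Z-form nucleic acids, fell with EpA on top of fatostatin, from 7.10 ± 0.0679 to 5.53 ± 0.0412 FPKM (log2 difference -0.35, adjusted p = 0.000188). Without fatostatin *Zbp1* gave -0.13 (adjusted p = 0.0692), and the difference between these values did not pass the test (adjusted p = 0.375).

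Of the 3 IFITM genes, a cluster on chromosome 7, *Ifitm1* and *Ifitm3* fell with fatostatin, and *Ifitm2* did not pass the test. *Ifitm1* (chr7:140967221-140969825, plus strand) read 1.45, 1.30 and 1.43 FPKM with DMSO and 1.52, 1.56 and 2.12 with EpA, on 58 to 98 reads per library. With fatostatin it read 0.536, 0.413 and 0.812 FPKM and with both compounds 0.387, 0.616 and 0.491, on 18 to 36 reads. The 6 libraries with fatostatin lay below the 6 without it. Fatostatin against DMSO, which shares no libraries with that choice, gave a log2 difference of -1.16 (SE 0.21, adjusted p = 0.00339), or 0.422 times the DMSO mean. Both compounds against EpA, the difference for which the gene was chosen, was -1.62, or 0.288 times the EpA mean, and is given without a test. EpA against DMSO (0.28) and both compounds against fatostatin (-0.18) each share 3 libraries with that choice and are given as values only, and the direction of the second turned (0.05) without the third fatostatin library.

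*Ifitm3* (chr7:141009586-141010770, minus strand), the family member known to restrict influenza viruses, read 3.18, 3.75 and 3.77 FPKM with DMSO, 5.97, 4.11 and 4.63 with EpA, 2.73, 1.44 and 2.55 with fatostatin and 3.33, 3.58 and 3.35 with both. The fatostatin libraries were the lowest and the EpA libraries the highest of the 12. It fell by 0.69 on the log2 scale with fatostatin (SE 0.2, adjusted p = 0.0403) and rose by 0.64 with EpA on top of fatostatin (adjusted p = 0.033), while EpA against DMSO gave 0.44 (adjusted p = 0.137). These calls were close to the threshold: the first was lost without any 1 of 8 libraries (adjusted p 0.0522 to 0.115) and the second without any 1 of 4 (adjusted p 0.0641 to 0.0873), and without the second fatostatin library, the lowest, the values were -0.42 and 0.36.

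*Ifitm2* (chr7:140954837-140955987, minus strand) read 11.97, 8.18 and 8.95 FPKM with DMSO, 11.1, 9.88 and 11.6 with EpA, 9.63, 9.001 and 9.46 with fatostatin and 12.4, 9.25 and 10.7 with both. The groups overlapped in every comparison made here, while the EpA libraries lay above those with fatostatin alone, a pair that was not compared. The log2 differences of 0.18 with EpA (adjusted p = 0.373) and -0.03 with fatostatin (adjusted p = 0.917) did not pass the test. Exons of *Ifitm2* overlap those of *Gm45717* on the same strand over 40.9% of their length, and the IFITM sequences are alike, so the division of reads among them is uncertain. *Ifitm1*, which lies between *Ifitm2* and *Ifitm3*, has no match of either kind. The 250 bases searched for it (chr7:140967826-140968075, plus strand) lie within its gene span, so they are not upstream of every annotated transcript. *Ifitm2* and *Ifitm3* are shown because they differ in this search. *Ifitm2* holds an ISRE match at 46 bases (chr7:140955962-140956081, minus strand). *Ifitm3* (chr7:141010745-141010864, minus strand) has no match of either kind in the last 250 bases.
Ifitm2: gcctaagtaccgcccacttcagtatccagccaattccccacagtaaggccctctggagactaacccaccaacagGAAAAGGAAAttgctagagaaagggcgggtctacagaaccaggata
Ifitm3: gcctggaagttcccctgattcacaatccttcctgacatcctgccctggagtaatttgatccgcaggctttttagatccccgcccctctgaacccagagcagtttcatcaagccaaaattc

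**Figure D4:**
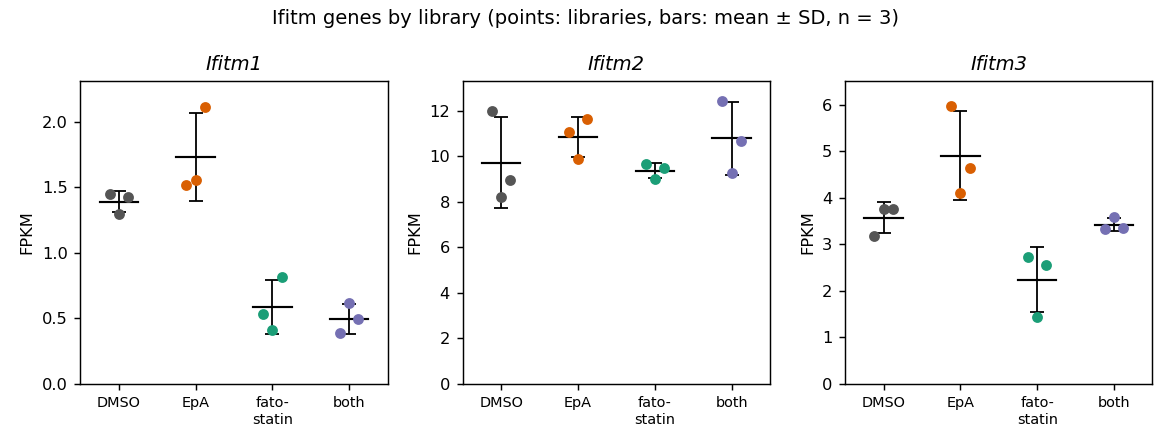
FPKM of *Ifitm1*, *Ifitm2* and *Ifitm3* in each of the 12 libraries (points), with the mean and SD of the 3 libraries of each group (black bars) and an axis from 0 in each panel. *Ifitm1* is at 0.387 to 0.812 FPKM in the 6 libraries with fatostatin and at 1.30 to 2.12 in the 6 without. The groups of *Ifitm2* overlap, except that EpA lies above fatostatin alone, and *Ifitm3* is lowest with fatostatin alone.

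The comparison of both compounds with EpA, which supplied the rule, is described without tests. In it, 11 of 38 members had groups that did not overlap and were higher with fatostatin added (28.9%, where 18.9% of all tested genes were so), and 7 were lower (18.4%, against 14.4%). The 7 include *Ifitm1*, which the rule fixed, and without it 6 of 37 were lower (16.2%). The values were 1.01 for *Mx1*, 0.91 for *Isg20*, 0.52 for *Gbp3* and 0.27 for *Gbp2* on the log2 scale, and -1.62 for *Ifitm1*, -0.60 for *Rigi* and -0.49 for *Ifitm3*. The difference was -0.05 for *Irgm1* and 0.03 for *Ifi47*.

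Whether the effect of EpA depended on fatostatin was tested directly as the difference between its effect with and without fatostatin, leaving out *Ifitm1*. In limma, 0 of 37 members passed in either direction, where 0.0364% of all tested genes were higher and 0.00728% lower (6 genes in all). Before adjustment 4 members had a p below 0.05 (10.8%, where 7.89% of all tested genes did), and the smallest adjusted p was 0.2, for *Irgm1*, whose difference was -0.18 (SE 0.0357). Across these 37 members the effect of EpA without fatostatin and with it had a Pearson correlation of 0.881 and a Spearman correlation of 0.897, with the same sign in 31 (83.8%), where all 13733 tested genes gave 0.481, 0.621 and 76.7%. These are descriptions across genes, which are not independent replicates, over contrasts that share no libraries. For *Mx1* the effect was -0.64 and -1.05, a difference of -0.41 with an SE of 0.265 (adjusted p = 0.788), which leaves room for effects of unequal size.

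**Figure D5:**
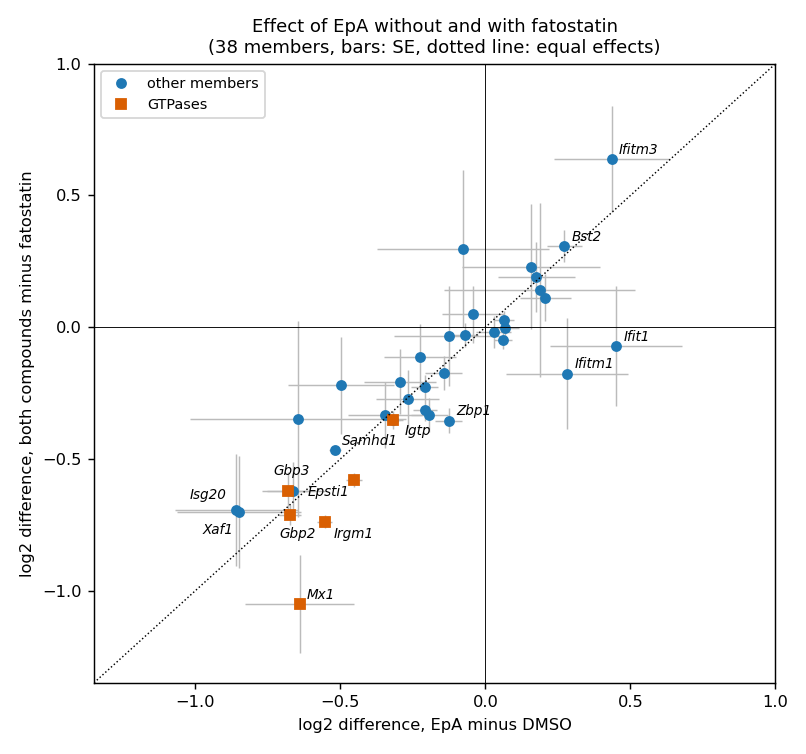
Log2 difference of EpA from DMSO (horizontal) against that of both compounds from fatostatin (vertical) for the 38 tested members, with SE bars, a dotted line of equal effects and GTPases as squares. Most members lie near the dotted line, with *Isg20* (-0.86 and -0.69), *Xaf1* (-0.85 and -0.70) and *Mx1* (-0.64 and -1.05) at the lower left and *Ifitm3* (0.44 and 0.64) at the upper right.

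The rest of the pathway was read from lists of ligands, receptors, transducers, inducers, brakes and the other *Ifitm* genes, 59 genes of which 35 could be tested. Of 20 interferon genes, 16 were at 0 in every library, and the highest value of any type I or type III gene was 0.125 FPKM. *Ifng*, the only ligand tested, averaged 2.20 ± 0.292 FPKM with DMSO, 1.76 ± 0.334 with EpA, 2.46 ± 0.14 with fatostatin and 1.30 ± 0.0464 with both. It fell with EpA on top of fatostatin (log2 difference -0.86, SE 0.122, adjusted p = 0.000297). Without fatostatin EpA gave -0.31 with overlapping groups (adjusted p = 0.0812), and fatostatin alone gave 0.16 (adjusted p = 0.464). Neither passed the test, nor did the difference between the effects of EpA on *Ifng* with and without fatostatin (adjusted p = 0.426). Its mean was highest with fatostatin, as were those of the 6 tested GTPases, and its part in their result was not tested.

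Over all 35 tested pathway genes, 3 rose and 8 fell with EpA (where 14.3% and 13.1% of all tested genes did), 5 rose and 2 fell with fatostatin (background 7.69% and 6.31%), and 4 rose and 8 fell with EpA on top of fatostatin (background 16.2% and 13.3%). Of the 6 receptor subunits, *Ifngr1* fell with EpA from 27.4 ± 0.999 to 22.5 ± 0.668 FPKM (log2 difference -0.28, adjusted p = 6.79e-05) while *Ifngr2* rose by 0.14 (adjusted p = 0.0145). On top of fatostatin *Ifngr1* fell by 0.20 (adjusted p = 0.000831) and *Ifnar2* by 0.22 (adjusted p = 0.0172). *Ifngr2* there gave 0.04 and did not pass the test (adjusted p = 0.412). Of the 5 transducers, 2 rose with fatostatin (background 7.69%), *Jak2* by 0.21 (adjusted p = 4.59e-05) and *Stat2* by 0.14 (adjusted p = 0.0123).

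Of the 15 tested inducers, 1 rose and 4 fell with EpA (background 14.3% and 13.1%), and 1 rose and 1 fell with fatostatin (background 7.69% and 6.31%). With EpA on top of fatostatin 1 rose and 3 fell (background 16.2% and 13.3%). The kinase gene *Ikbke* rose with fatostatin, from 5.57 ± 0.17 to 8.72 ± 0.16 FPKM (log2 difference 0.64, adjusted p = 1.22e-06). It fell with EpA by 0.25 (adjusted p = 0.000772). *Irf5*, a transcription factor of cytokine induction, rose with EpA by 0.35 (adjusted p = 0.0117) and on top of fatostatin by 0.54 (adjusted p = 0.000735). *Tlr7*, an endosomal receptor for single-stranded RNA, fell with fatostatin by 0.44 (adjusted p = 0.00477) and with EpA by 0.32 (adjusted p = 0.0165), as *Rigi* did. Of the 8 brakes, *Ptprc*, the CD45 phosphatase that can act on Janus kinases, rose with fatostatin by 0.24 (adjusted p = 0.000104) and fell with EpA by 0.33 (adjusted p = 4.28e-06) and on top of fatostatin by 0.32 (adjusted p = 4.2e-06). The phosphatase gene *Ptpn1* rose with EpA by 0.15 (adjusted p = 0.000141) and on top of fatostatin by 0.19 (adjusted p = 3.03e-05). *Socs3* fell with fatostatin by 0.21 (adjusted p = 0.0175) and rose with EpA on top of it by 0.47 (adjusted p = 4.32e-05).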

How the data were processed

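RNA-seq of Th9 cells in 4 groups of 3 libraries was taken as deposited in FPKM. Per the methods of the authors, reads were trimmed with Trim Galore, aligned to GRCm38 with HISAT2, counted on genes with featureCounts and scaled to FPKM by gene length and library size. The annotation release and the use of strand in counting are not given in the sources used here, so overlapping and antisense genes are uncertain. The authors used DESeq2 on counts, which were not used here. The table holds 32352 lines for 32051 genes, of which 301 lines repeat a gene with the same values, and 0 columns belong to no sample.

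Exon lengths from GENCODE annotation of GRCm38, present for 32003 genes, showed what 1 read is worth, and on that scale 98.25% to 98.48% of a library's values were whole within 0.05 reads. In every library more genes had 2 reads (1032 to 1138) than 1 (447 to 548), so both mates of a fragment may be counted. A transcript of 1 kb with 1 read has 0.0225 to 0.0273 FPKM, and this counting error limits members below 0.1 FPKM.

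Values were tested as log2(FPKM + 0.1) in R 4.3.3 with limma 3.58.1, in 1 fit of the 12 libraries with a mean for each group and an intensity trend, over the 13733 genes that averaged 0.1 FPKM or more. P-values are two-sided and adjusted by the Benjamini-Hochberg method over all 13733 genes, and a call is an adjusted p below 0.05. An exact permutation test of 3 libraries against 3 cannot go below p = 0.1 and was not used. The contrast of both compounds with EpA chose *Ifitm1* and was not tested. The members, their roles and the lists were chosen with earlier results of these data known. Members given with every library were the 3 IFITM genes, those past both thresholds and the 5 with the largest called change in each of the 3 tested comparisons. The other members are given by level, range or count, and those named among them were chosen after their values were seen. Alternatives varied the scaling, pseudocount, minimum level, groups fitted, intensity trend, replicate block and libraries, and a voom fit to the recovered reads was added after seeing the data. The method was tested on simulated data. Promoter sequences are from RefSeq (GRCm38.p6), matched by symbol for 38 members, with 46 promoters. A gene of the pathway lists is not reported here.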

Additional observations from a re-analysis of the deposited data

How the results depend on the processing

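The counts of members that fell kept their direction and stayed within 1.5 times the reported count under every alternative run: 11 to 16 for EpA against DMSO (reported 14), 12 to 17 for both compounds against fatostatin (reported 15) and 2 to 4 for fatostatin against DMSO (reported 3), where 8 to 10 rose (reported 10). The difference between the effects of EpA gave 0 members in every alternative. Counts of members that rose with EpA are small and moved: against DMSO 2 rather than 1 with the compared groups alone and with voom (1 to 2 with 1 library left out), and on top of fatostatin 1 rather than 2 with all genes above 0, with the compared groups alone and without an intensity trend (1 to 2 with 1 library left out). With a pseudocount of 1 the described difference of *Ifitm1* between both compounds and EpA was -0.86 in place of -1.62. Past 1.5-fold, over all alternatives, 0 to 2 members rose (reported 2) and 1 to 2 fell (reported 2) with fatostatin, and 0 to 1 rose (reported 1) on top of it. The median log2 difference of the members kept its sign in all alternatives, from -0.22 to -0.13 with EpA, from -0.23 to -0.11 on top of fatostatin and from 0.062 to 0.0998 with fatostatin. The 6 GTPases kept their signs in all 3 tested comparisons under every alternative, both scalings included, with *Mx1* left out of the test at a minimum of 1 FPKM, as were *Isg20* and *Xaf1*.

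Calls lost when 1 library was left out were *Mx1* with EpA (DMSO 2 or 3, EpA 1 or 3), *Rigi* with EpA (DMSO 1 or 3, any EpA, fatostatin 1), *Isg20* with fatostatin (any of the 6 compared), *Isg20* on top of fatostatin (any fatostatin, EpA+fatostatin 3), *Xaf1* on top of fatostatin (fatostatin 1, EpA+fatostatin 1 or 3), *Ifitm3* with fatostatin (any DMSO, EpA 3, fatostatin 2, any with both compounds) and *Ifitm3* on top of fatostatin (fatostatin 2, any with both compounds), at the values given above. *Ifitm2* with EpA passed without DMSO 1 (0.34, adjusted p = 0.047) and *Ifitm3* with EpA without fatostatin 2 (0.44, adjusted p = 0.021). With 1 library left out, differences that were not called ranged for *Ifitm2* with fatostatin from -0.14 to 0.13, for *Xaf1* with fatostatin from -0.22 to 0.05 and for *Ifitm1* with EpA on top of fatostatin from -0.37 to 0.049, and changed sign. *Ifitm3* with fatostatin was also lost with all genes above 0 (adjusted p = 0.0727), the compared groups alone (0.103) and no trend (0.0713), *Ifitm3* on top of fatostatin with the same (0.0594, 0.0773 and 0.0554), *Rigi* with EpA with all genes above 0 (0.0666), a common sum (0.0524) and no trend (0.0531), *Mx1* with EpA at a pseudocount of 1 (0.0887) and the compared groups alone (0.0573), *Isg20* with fatostatin at a pseudocount of 0.01 (0.0576) and all genes above 0 (0.0583), and *Isg20* and *Xaf1* on top of fatostatin with the compared groups alone (0.0701 and 0.0519). The causes of these changes were not tested. Replicate numbers are shared between groups, but same-numbered libraries did not deviate together (r of -0.0472 to 0.0744 over 18 pairs). With the replicate block, EpA against DMSO gave 13 members lower and both compounds against fatostatin 14, and *Rigi* with EpA (adjusted p = 0.0692) and *Xaf1* on top of fatostatin (adjusted p = 0.0519) were lost. Levels below 0.1 FPKM rest on few reads, and the 9 members below that minimum were left out of the reported test.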
